A study of Mus musculus with 4 samples.

Results

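The genes described are 10 feedback inhibitors of mitogen-activated protein (MAP) kinase signalling: the dual-specificity phosphatases Dusp1, Dusp2, Dusp4, Dusp5, Dusp6 and Dusp10, the Sprouty proteins Spry1 and Spry2, and the Sprouty-related proteins Spred1 and Spred2. They were taken as every probe that the scanner files name after one of them, which gave 12 probes for the 10 genes, out of 22297 genes named on the array. Their RNA was measured on 4 one-colour arrays of regulatory T cells (Tregs), the CD4 T cells that restrain immune responses, from deltaDC spleen, WT spleen, deltaDC thymus and WT thymus, with 1 array in each group. All mice were male C57BL/6, and their age is not given in the sources used here. The labels do not spell out deltaDC, a term that immunologists use for mice made to lack dendritic cells, and they name neither an allele nor a targeted gene, so the genotype could not be checked on the arrays. Cells of 3 mice were pooled per genotype, so each array shows 1 pool with no spread between animals. The cells were sorted as live CD4+ CD25+ cells and not by Foxp3, the factor that defines Tregs, and CD8+ cells had been depleted from the thymus cells.

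T cell receptor and growth factor signals pass through Ras, Raf, MEK and ERK to the nucleus, while stress and cytokines also act through JNK and p38. Dual-specificity phosphatases end these signals by removing phosphate from the kinases, and Sprouty and Spred proteins act further up, between receptors and Raf. Many of these inhibitors are themselves transcribed in response to ERK activity, so their RNA is often read as a trace of recent signalling, and in the thymus such signals accompany the selection of Tregs.

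Values are scaled signals, that is, background-subtracted fluorescence with the 75th percentile of every array set to the same value. A difference is log2 of the first group over the second, and its ± is the spot error. This is the root of the summed squares of the spot SDs of the arrays compared. A spot SD is that expected from repeated spots of 1 probe on 1 array, and is smaller where several spots are averaged. A probe was measured where the scanner software called it well above background. Each array had between 48.7% and 50.7% of its spots well above background and 0 saturated spots, and all 4 arrays lay on 1 slide read in 1 scan session. Of the Treg markers 8 of 8, and of the T cell markers 7 of 7 on the array, were above background on every array. Markers of other cells differed between arrays. The summed signal of 14 NK and innate lymphoid markers was 36758 on the deltaDC spleen array, 4606 on WT spleen, 17496 on deltaDC thymus and 15184 on WT thymus. That of 8 neutrophil markers was 9948, 172, 2458 and 950.0 in the same order of groups. That of 8 B cell markers was 1978, 2098, 7164 and 3527, with Pax5 not above background on any array. That of 8 immature thymocyte markers was 56044 and 60370 on the deltaDC and WT thymus arrays, against 5380 and 6401 on the deltaDC and WT spleen arrays. Of 10 dendritic cell markers, 7 were above background on deltaDC spleen against 3 on WT spleen, and 7 on deltaDC thymus against 8 on WT thymus. Xcr1 and Clec9a were not above background on any array. Their summed signals of 54933, 77756, 50824 and 59313, in the order of the NK list, were carried by Siglech (45104, 69980, 43105 and 49332). Of the 3 measured on both spleen arrays, 2 were higher in deltaDC (median 0.31), and 2 others had bounds of at least 2-fold higher. Of the 7 measured on both thymus arrays, 6 were lower in deltaDC, 2 of them at least 2-fold, and 1 was higher (median -0.29). The bound of 1 other was at least 2-fold lower in the deltaDC thymus. Of erythroid markers, 4 were measured on both arrays of each organ, and 4 of 4 were at least 2-fold higher in deltaDC in spleen and in thymus (by 1.21 to 1.59 and by 2.01 to 2.63 log2 units). Sums of macrophage and stromal markers ranged over the arrays from 1866 to 3797 and from 1135 to 1793, with Foxn1, Pdgfra and Cdh5 not above background on any. In bulk samples, fewer cells of a type and less RNA per cell cannot be told apart.

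Of the 10 genes, 9 were measured on all 4 arrays. Spry2 had scaled signals of 4.56 on deltaDC spleen, 4.09 on WT spleen, 3.51 on deltaDC thymus and 5.24 on WT thymus, was not well above background on any of them and gets no difference. Signals of different probes cannot be set against each other, so levels are compared only within a gene.

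**Figure D1:**
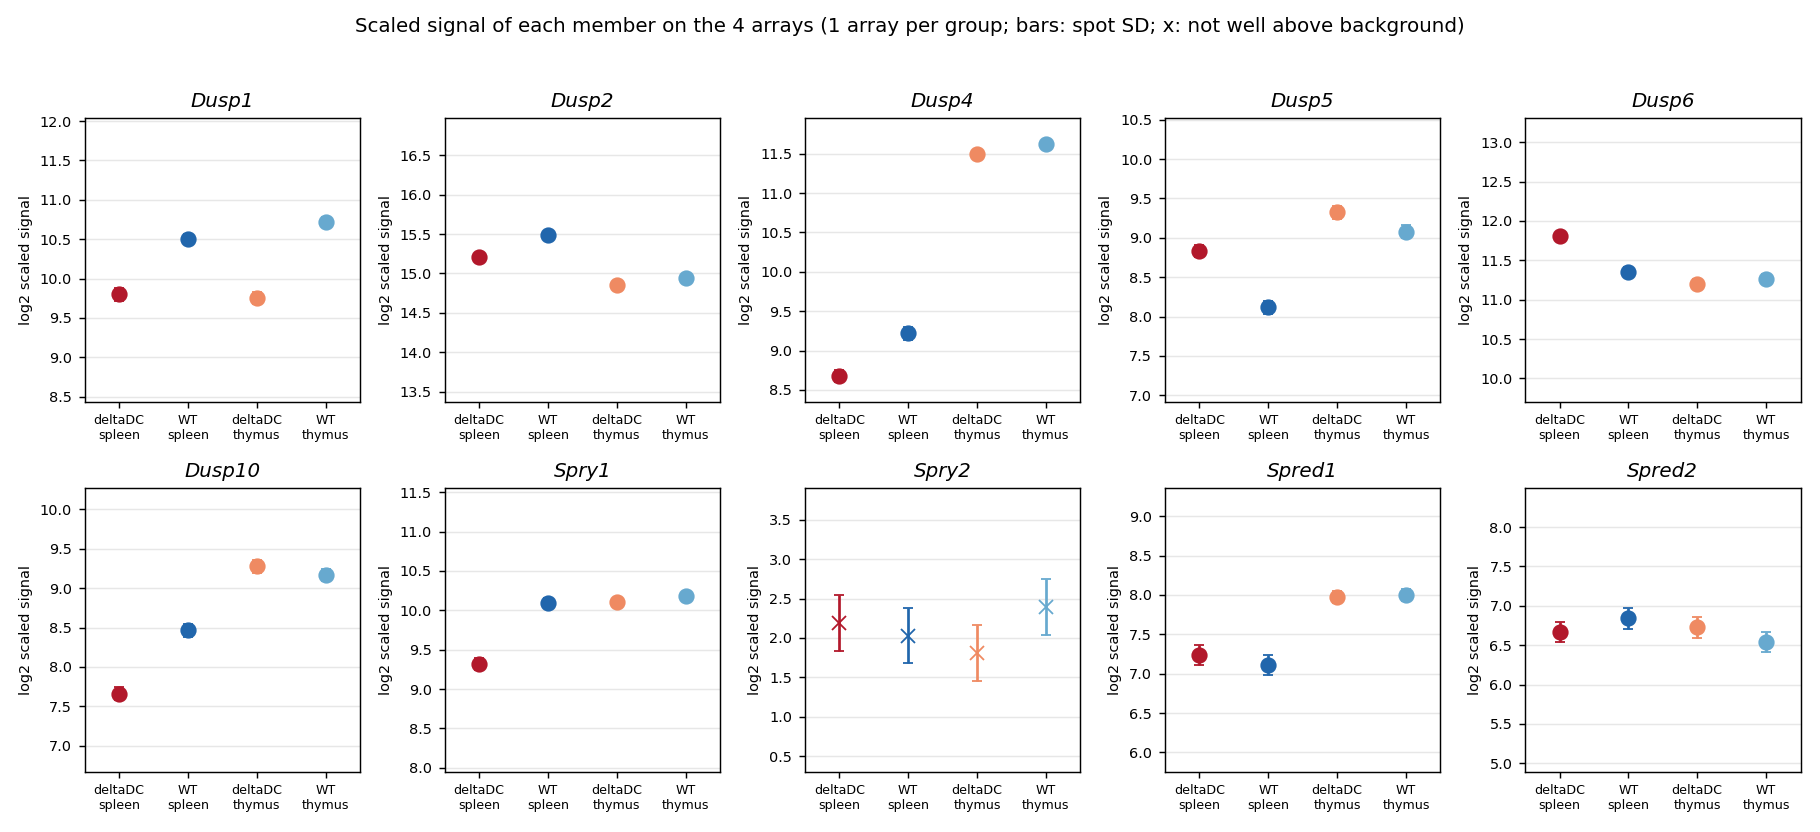
Log2 scaled signal of the 10 genes, 1 panel each, on the deltaDC spleen, WT spleen, deltaDC thymus and WT thymus arrays, with bars for the spot SD and crosses where a probe was not well above background. Every panel spans the same number of log2 units, so the step between spleen and thymus is seen to be largest for Dusp4 (2887 and 3154 in thymus against 410 and 595 in spleen).

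Dusp1 (MKP-1) is a nuclear phosphatase of p38, JNK and ERK and an immediate-early gene. It had a scaled signal of 891 on deltaDC spleen against 1454 on WT spleen, and of 862 on deltaDC thymus against 1688 on WT thymus. Both deltaDC arrays thus lay below both WT arrays. The deltaDC arrays of spleen and thymus differed from each other by less than their spot error. These levels rest on 1 probe of 60 bases, whose listed coordinates cover 11 bases. The log2 difference between deltaDC and WT was -0.71 ± 0.10 in spleen and -0.97 ± 0.10 in thymus, or 1.63-fold and 1.96-fold lower. In thymus 0.743% of all measured genes were at least as low. In spleen this share was 4.87%. Fitted over both organs with limma, the genotype effect of Dusp1 was -0.84 (SE 0.16) with an unadjusted p of 0.015, the lowest among the 9 genes, and an adjusted p of 0.806, so it did not pass. Both organs of a genotype came from the same pooled mice, so this SE and p hold no spread between animals. The erythroid markers given above also differed between genotypes in both organs, upwards in deltaDC. The summed signals of neutrophil, of NK and innate lymphoid, and of macrophage markers were higher in deltaDC in both organs as well. The part of any of these cells in the Dusp1 difference was not tested.

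The promoter of Dusp1 is shown for comparison with those of Dusp5, which differed the other way between genotypes, and of Dusp10, which differed mainly in the spleen. Each is the 250 bases before the transcription start in RefSeq's GRCm38.p6 annotation, on the gene's strand. Capitals mark matches, on either strand, to the cyclic AMP response element (CRE) TGACGTCA, to its shorter form TGACG, which the full element contains, and to the serum response factor motif called the CArG box. The AP-1 motif TGANTCA was also searched.
Dusp1, chr17:26508473-26508722, minus strand: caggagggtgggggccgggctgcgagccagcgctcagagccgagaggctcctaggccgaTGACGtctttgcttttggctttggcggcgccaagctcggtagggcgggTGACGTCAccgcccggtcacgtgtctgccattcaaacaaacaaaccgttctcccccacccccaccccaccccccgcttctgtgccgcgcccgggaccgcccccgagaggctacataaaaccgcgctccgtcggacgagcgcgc
Dusp5, chr19:53528895-53529144, plus strand: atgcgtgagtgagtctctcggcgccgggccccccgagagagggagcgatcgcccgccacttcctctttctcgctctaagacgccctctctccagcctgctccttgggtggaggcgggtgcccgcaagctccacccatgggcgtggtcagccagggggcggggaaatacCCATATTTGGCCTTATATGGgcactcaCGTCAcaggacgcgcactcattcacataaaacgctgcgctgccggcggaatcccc
Dusp10, chr1:184034131-184034380, plus strand: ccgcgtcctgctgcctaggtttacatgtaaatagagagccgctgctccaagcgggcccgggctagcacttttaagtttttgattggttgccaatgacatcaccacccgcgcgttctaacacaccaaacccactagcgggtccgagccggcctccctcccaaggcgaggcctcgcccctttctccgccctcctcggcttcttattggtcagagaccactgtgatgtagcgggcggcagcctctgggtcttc

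Of the 10 genes 9, all but Dusp4, had a promoter in the table used. Dusp1 alone of these held the full CRE, whose first base lies 143 bases before the start, and it held 3 matches to the shorter form, 2 of them within the full element. Dusp5 alone held CArG boxes, 2 of them side by side, and 1 match to the shorter CRE that begins 55 bases before the start. Spred2 also had 1 shorter CRE, and no promoter of the 9 held the AP-1 motif. Among 32851 promoters of the same length, 1.55% held the full CRE, 17.8% the shorter form, 6.75% the AP-1 motif and 1.47% a CArG box. Such matches describe the letters of this window only.

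Dusp2 (PAC-1), a nuclear ERK phosphatase of activated lymphocytes, had scaled signals of 37885 on deltaDC spleen, 45912 on WT spleen, 29666 on deltaDC thymus and 31429 on WT thymus. Both thymus arrays lay below both spleen arrays. The difference between deltaDC and WT was -0.28 ± 0.07 in spleen and -0.08 ± 0.07 in thymus, and that between thymus and spleen was -0.35 ± 0.07 in deltaDC and -0.55 ± 0.07 in WT. The last value was -0.22 after quantile normalization, so the size of the organ difference of this very bright probe depended on the scaling. The genotype difference in thymus moved as well, to -0.25 after quantile normalization.

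Dusp4 (MKP-2), a nuclear phosphatase of ERK and JNK, showed the widest spread of the 9 genes. Its scaled signal was 2887 on deltaDC thymus against 410 on deltaDC spleen, and 3154 on WT thymus against 595 on WT spleen. The thymus and spleen arrays did not overlap, with thymus 7.04-fold higher in deltaDC (log2 2.82 ± 0.10) and 5.30-fold higher in WT (2.41 ± 0.10). Of all measured genes, 0.671% were at least as much higher in the deltaDC thymus and 1.34% in the WT thymus. In the limma fit the organ effect of Dusp4 was 2.61 (SE 0.18), with an unadjusted p of 0.00099 and an adjusted p of 0.0687. Its adjusted p was 0.0243 with another background correction (normexp), which carried it past the threshold, and at most 0.108 under the other alternatives. Immature thymocyte markers, 8 of 8 above background on both thymus arrays, moved with this difference, and the thymic CD4+ CD25+ gate could hold such cells. Rag2, Ptcra and Cd8a were not above background on either spleen array. The part of these cells in the Dusp4 difference was not tested. Between genotypes Dusp4 was lower on the deltaDC arrays, with differences of -0.54 ± 0.11 in spleen and -0.13 ± 0.08 in thymus. The probe lies at chr8:35882045-35882104 on mm9 and starts with these 30 of its 60 bases, given because the largest difference among the 9 genes rests on this 1 probe.
Dusp4 probe: aataacggcggtttccgctgccagagaaga

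Dusp5, a nuclear phosphatase specific to ERK, had the largest positive difference between genotypes among the 9 genes. Its scaled signal was 456 on deltaDC spleen against 277 on WT spleen, and 640.5 on deltaDC thymus against 541 on WT thymus. The difference was 0.72 ± 0.11 in spleen and 0.24 ± 0.11 in thymus. Both deltaDC arrays were above the WT array of the same organ, and both thymus arrays were above both spleen arrays. Thymus over spleen was 0.49 ± 0.11 in deltaDC and 0.96 ± 0.11 in WT, and the organ effect in limma was 0.73 (SE 0.20) with an adjusted p of 0.225.

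Dusp6 (MKP-3), the cytoplasmic ERK phosphatase, had scaled signals of 3576 on deltaDC spleen, 2621 on WT spleen, 2362 on deltaDC thymus and 2461 on WT thymus. The deltaDC spleen array stood above the other 3, by 0.45 ± 0.08 over WT spleen, while the thymus arrays differed by -0.06 ± 0.08. Thymus over spleen was -0.60 ± 0.08 in deltaDC and -0.09 ± 0.08 in WT.

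Dusp10 (MKP-5), a phosphatase of JNK and p38, had a scaled signal of 202 on deltaDC spleen against 353 on WT spleen, and of 620 on deltaDC thymus against 577 on WT thymus. The deltaDC spleen array was the lowest, at -0.80 ± 0.11 relative to WT spleen, and the thymus arrays differed by 0.10 ± 0.11, less than the spot error. Thymus was 3.06-fold higher than spleen in deltaDC (1.61 ± 0.11) and 1.63-fold higher in WT (0.71 ± 0.11). The organ effect in limma was 1.16 (SE 0.30) with an adjusted p of 0.220.

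Spry1, which restrains Ras and ERK activation downstream of receptor kinases and of the T cell receptor, was likewise lowest on the deltaDC spleen array. It had a scaled signal of 640 on deltaDC spleen against 1092 on WT spleen, and of 1099 on deltaDC thymus against 1158 on WT thymus. The deltaDC spleen array was 1.71-fold lower than WT spleen (-0.77 ± 0.10), and the other 3 arrays lay close together, with -0.07 ± 0.08 between the thymus arrays. Thymus over spleen was 0.78 ± 0.10 in deltaDC and 0.08 ± 0.08 in WT. Its limma organ effect was 0.43 (SE 0.25, adjusted p 0.415).

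The deltaDC spleen array was the lowest of the 4 for Dusp4, Dusp10 and Spry1. It enters both the spleen comparison between genotypes and the deltaDC comparison between organs, so these differences share an array. It was also the array on which 11 of 13 measured NK and innate lymphoid markers were at least 2-fold above WT spleen. Its summed signals of neutrophil and of macrophage markers were the highest of the 4 arrays as well. The part of such cells in the values of these genes was not tested. The genotype difference in spleen minus that in thymus was -0.91 ± 0.16 for Dusp10, -0.70 ± 0.12 for Spry1, -0.41 ± 0.14 for Dusp4, 0.51 ± 0.11 for Dusp6 and 0.47 ± 0.16 for Dusp5. With 1 array per group no test of these is possible, and the spot error leaves out the spread between animals and labellings.

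Spred1, which brings the Ras inhibitor neurofibromin to the membrane, was read by 3 probes that did not rank the spleen arrays alike. The brightest had scaled signals of 151 on deltaDC spleen, 138 on WT spleen, 252 on deltaDC thymus and 256 on WT thymus. The second had 67.7, 101, 125 and 133 in the same order of groups. The dimmest was above background only on the thymus arrays, with 33.4 on deltaDC and 28.4 on WT, against 14.9 and 20.9 on the deltaDC and WT spleen arrays. The first 30 of each probe's 60 bases are given so that the disagreeing probes can be told apart.
Spred1 brightest probe, chr2:117005906-117005965 on mm9: cattaatattttcagtttgtttaaccactt
Spred1 second probe, chr2:117004952-117005011 on mm9: gtgatatgctccagcaaacaggttaaaaat
Spred1 dimmest probe, chr2:116998491-116998550 on mm9: caacctcttcattgtttaatgttctggtct

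The brightest and the second Spred1 probe were each higher on both thymus arrays than on either spleen array. The dimmest was not above background on the spleen arrays and gets no difference. Thymus over spleen on the brightest probe was 0.74 ± 0.15 in deltaDC and 0.89 ± 0.15 in WT, against 0.88 ± 0.18 and 0.40 ± 0.18 on the second. In limma the organ effect of the brightest probe was 0.81 (SE 0.14, unadjusted p 0.012, adjusted p 0.163). Between genotypes in spleen the brightest probe gave 0.12 ± 0.18 and the second -0.57 ± 0.18, so the direction of Spred1 there depended on the probe. In thymus they gave -0.02 ± 0.11 and -0.09 ± 0.18.

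Spred2, the related inhibitor of Raf activation, had scaled signals of 102 on deltaDC spleen, 115 on WT spleen, 106 on deltaDC thymus and 93.3 on WT thymus. Its differences between genotypes were -0.17 ± 0.18 in spleen and 0.18 ± 0.18 in thymus, both within the spot error. Thymus over spleen was 0.06 ± 0.18 in deltaDC and -0.30 ± 0.18 in WT, and the 4 arrays spanned 0.30 log2 units, the narrowest range of the 9 genes.

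**Figure D2:**
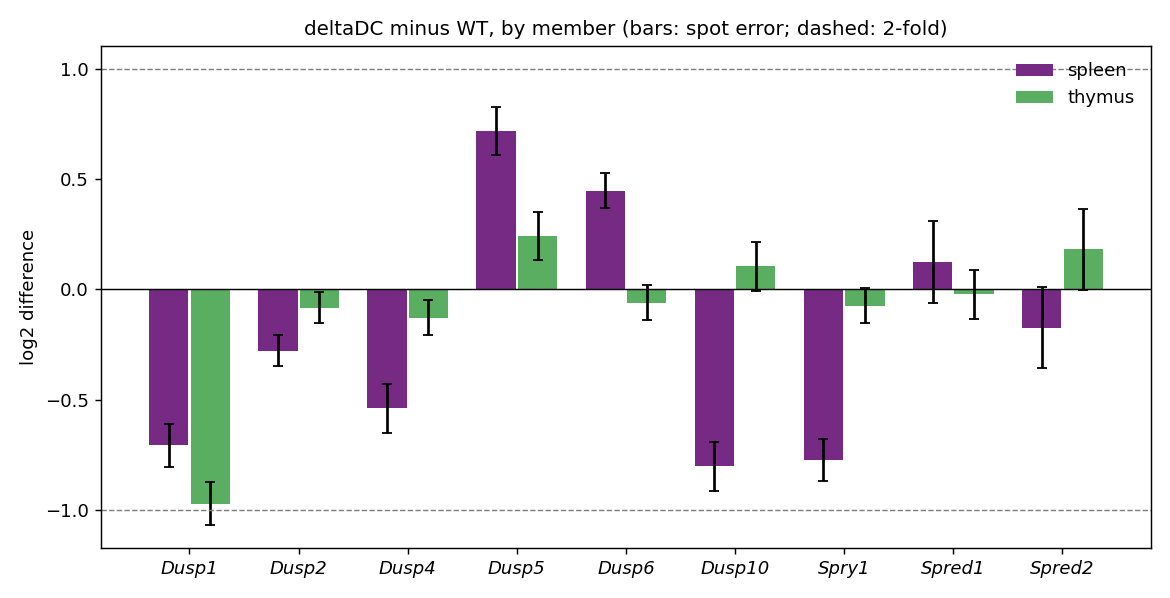
Log2 difference between deltaDC and WT for the 9 measured genes, in spleen (purple) and thymus (green), with bars for the spot error and dashed lines at 2-fold. Dusp1 is the lone gene well below 0 in both organs, at -0.71 in spleen and -0.97 in thymus, and no gene crosses the 2-fold lines.

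Between deltaDC and WT spleen 0 of the 9 genes differed at least 2-fold, where 8.5% of 12545 measured genes did, 6.48% higher and 2.02% lower. Between deltaDC and WT thymus 0 of 9 did, where 1.61% of 13056 genes did, 0.942% higher and 0.666% lower. In spleen 3 of the 9 lay above 0 and 6 below, with a median of -0.28, against a median of -0.005 over all genes. In thymus 3 lay above and 6 below, with a median of -0.06 against 0.05 over all genes. The limma genotype effect passed an adjusted p under 0.05 for 0 of the 9 genes and for 0 of 13508 genes tested (0.0%). At an unadjusted p under 0.05 these counts were 1 and 590.

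Between thymus and spleen 2 of the 9 genes were at least 2-fold higher in deltaDC, Dusp4 and Dusp10, and 0 were as much lower. Of 12819 measured genes 11.6% differed 2-fold in that comparison, 5.41% higher and 6.16% lower. In WT 1 of the 9, Dusp4, was at least 2-fold higher and 0 were lower, where 9.66% of 12507 genes differed, 6.61% higher and 3.05% lower. Medians over the 9 genes were 0.49 in deltaDC and 0.22 in WT, against -0.02 and -0.08 over all genes. The limma organ effect passed for 0 of the 9 and for 61 of 13508 genes (0.452%), of which 59 (0.437%) were higher in thymus and 2 (0.0148%) lower. At an unadjusted p under 0.05 it gave 4 of the 9, Dusp4, Dusp5, Dusp10 and Spred1, all higher in thymus, and 2725 of the 13508 genes.

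**Figure D3:**
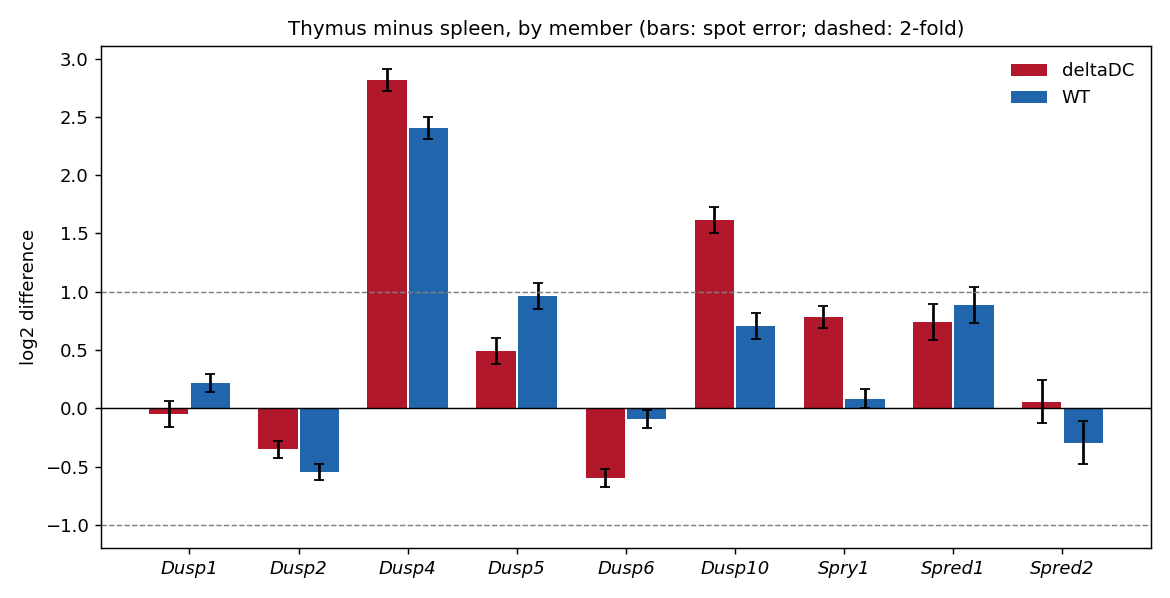
Log2 difference between thymus and spleen for the 9 measured genes, in deltaDC (red) and WT (blue) mice, with bars for the spot error and dashed lines at 2-fold. Dusp4 stands at 2.82 in deltaDC and 2.41 in WT, Dusp10 passes 2-fold in deltaDC alone, and Dusp2 and Dusp6 lie below 0 in both genotypes.

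The genes whose profile over the 4 arrays was most like that of a member were sought among 12305 genes above background on all arrays, by the distance between mean-centred log2 levels. This was done for the 3 members whose levels spanned at least 1 log2 unit. Nearest to Dusp4 were Cavin1 (distance 0.15), Stra8 (0.16) and Kifc3 (0.19). Nearest to Dusp5 were Tfdp2 (0.13), Cenpu (0.13) and Cenpi (0.15), of which the last pair encode centromere proteins. Nearest to Dusp10 were Amigo2, Fggy and Zmynd12, at 0.06, 0.06 and 0.08. With 4 arrays many genes fall close to any profile, and the distances are a description.

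Among 14 other dual-specificity phosphatases on the array, 9 were measured on both spleen arrays, with 2 at least 2-fold higher in deltaDC and 0 lower. Of all measured genes 6.48% were as much higher there and 2.02% lower. Dusp3 (VHR), a small phosphatase of ERK and JNK, had 245 on deltaDC spleen against 42.5 on WT spleen, a difference of 2.53 ± 0.36, and lay at 73.9 and 72.7 on the deltaDC and WT thymus arrays. A second Dusp3 probe was above background on 1 array only and gives no difference. Dusp14, which acts on ERK, JNK and TAB1, had 276 on deltaDC spleen against 132 on WT spleen (1.07 ± 0.15), but 206 on deltaDC thymus against 372 on WT thymus (-0.85 ± 0.11). Dusp16, a JNK phosphatase, had 452 on deltaDC spleen against 237 on WT spleen (0.93 ± 0.11). A second Dusp16 probe, above background on 3 arrays, gave 1.19. For thymus over spleen in deltaDC the second probe gave -0.67, against 0.05 on the first. Dusp7, a cytoplasmic ERK phosphatase close to Dusp6, was lower in thymus than in spleen, with differences of -1.34 ± 0.11 in deltaDC and -1.31 ± 0.11 in WT, and its second probe gave -0.68 and -0.92. Dusp3 was -1.73 ± 0.15 in thymus over spleen of deltaDC mice. In thymus over spleen of WT mice, Dusp14 was 1.49 ± 0.15 and Dusp16 was 1.24 ± 0.11. Between the thymus arrays 0 of 10 of these phosphatases differed 2-fold, where 1.61% of all measured genes did. Spry3, Spry4 and Spred3, the other members of the Sprouty and Spred families, were not above background on any array.

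Of 17 genes of the Ras-ERK core, from the Ras genes to ERK and its RSK kinases, 17 were measured on all arrays. Over all genes 8.5% and 1.61% differed 2-fold between genotypes in spleen and thymus, and 11.6% and 9.66% between organs in deltaDC and WT. In the Ras-ERK core 0 of 17 did so in any of the 4 comparisons. The 3 with the largest differences were Ksr1, a scaffold of Raf and MEK (-0.93 ± 0.15 for thymus over spleen in deltaDC and -0.55 ± 0.15 in WT), Rps6ka1, which encodes RSK1 (-0.76 ± 0.07 and -0.67 ± 0.07), and Braf (0.55 ± 0.10 and 0.24 ± 0.08). A second Braf probe gave -0.19 and -0.52, the opposite direction. Among 20 regulators of Ras, Dab2ip, a Ras GTPase activator, was 1.12 ± 0.11 higher on deltaDC spleen than on WT spleen and the adaptor Dok1 was -1.02 ± 0.08 in thymus over spleen of deltaDC mice. Dab2ip was also higher in thymus than in spleen of WT mice, by 1.23 ± 0.11, and no other of the 20 reached 2-fold in any comparison. A second Dab2ip probe was not above background on any array.

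Of 19 genes of the JNK and p38 pathways measured in spleen, 2 were at least 2-fold higher in deltaDC, where 6.48% of all genes were. Mapk10, which encodes JNK3, had 562 on deltaDC spleen against 83.8 on WT spleen (2.75 ± 0.15), and was at least 5.50-fold higher on deltaDC thymus than on WT thymus, where it was not well above background. A second Mapk10 probe was not above background on any array. Gadd45b, an activator of the p38 pathway, had 2796 on deltaDC spleen against 1307 on WT spleen (1.10 ± 0.08) and differed by 0.05 ± 0.08 in thymus. Between thymus and spleen of deltaDC mice, Mapk10 was -2.70 ± 0.15. Map3k5, which encodes ASK1, was -1.06 ± 0.11 in thymus over spleen of deltaDC mice, against -0.23 on its second probe. In WT mice the Map3k5 probes went opposite ways, with -0.81 on the first and 0.23 on the second. Between genotypes in spleen they gave 0.04 and 0.90.

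The last list holds 21 genes that ERK signalling commonly induces. In spleen 17 were measured, of which 13 lay below 0, 3 were at least 2-fold lower (Fos, Jun and Myc) and 1 was at least 2-fold higher (Fosl2, 370 on deltaDC against 120 on WT). Outside these 17, the bounds in spleen placed 1 further gene past 2-fold upwards in deltaDC and 0 downwards. In thymus 18 were measured, of which 12 lay below 0 and 4 were at least 2-fold lower (Fos, Fosb, Jun and Junb). Myc and Junb are named here after their values were seen. Medians were -0.38 in spleen and -0.20 in thymus, against the all-gene medians given above. Over all genes, 6352 of 12545 lay below 0 in spleen and 5205 of 13056 in thymus. In spleen 2.02% of all genes were at least 2-fold lower and 6.48% higher. In thymus these shares were 0.666% and 0.942%. In limma 0 of 19 passed for genotype (lowest adjusted p 0.806). At an unadjusted p under 0.05 there were 5 of the 19, against 590 of 13508 over all genes.

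Fos, a subunit of AP-1, had a scaled signal of 265 on deltaDC spleen against 896 on WT spleen, and of 577 on deltaDC thymus against 2155 on WT thymus. Its differences of -1.76 ± 0.04 in spleen and -1.90 ± 0.03 in thymus ran the same way as those of Dusp1. The part in them of the erythroid and other cells named with Dusp1 was not tested either. Jun, its AP-1 partner, had 10455 on deltaDC spleen against 24341 on WT spleen, and 17787 on deltaDC thymus against 39877 on WT thymus (-1.22 ± 0.07 and -1.16 ± 0.07). Egr1, another immediate-early gene, had -0.14 in spleen and 0.12 in thymus, and Egr2 had 0.14 and 0.53. Phlda1 had -0.46 ± 0.10 in spleen and -0.97 ± 0.08 in thymus. Zfp36, which encodes an RNA-destabilising protein, had -0.93 ± 0.38 in spleen and was at least 2.02-fold lower on deltaDC thymus, where it was not well above background. Fosb had 0.02 ± 0.18 in spleen and -1.22 ± 0.15 in thymus.

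**Figure D4:**
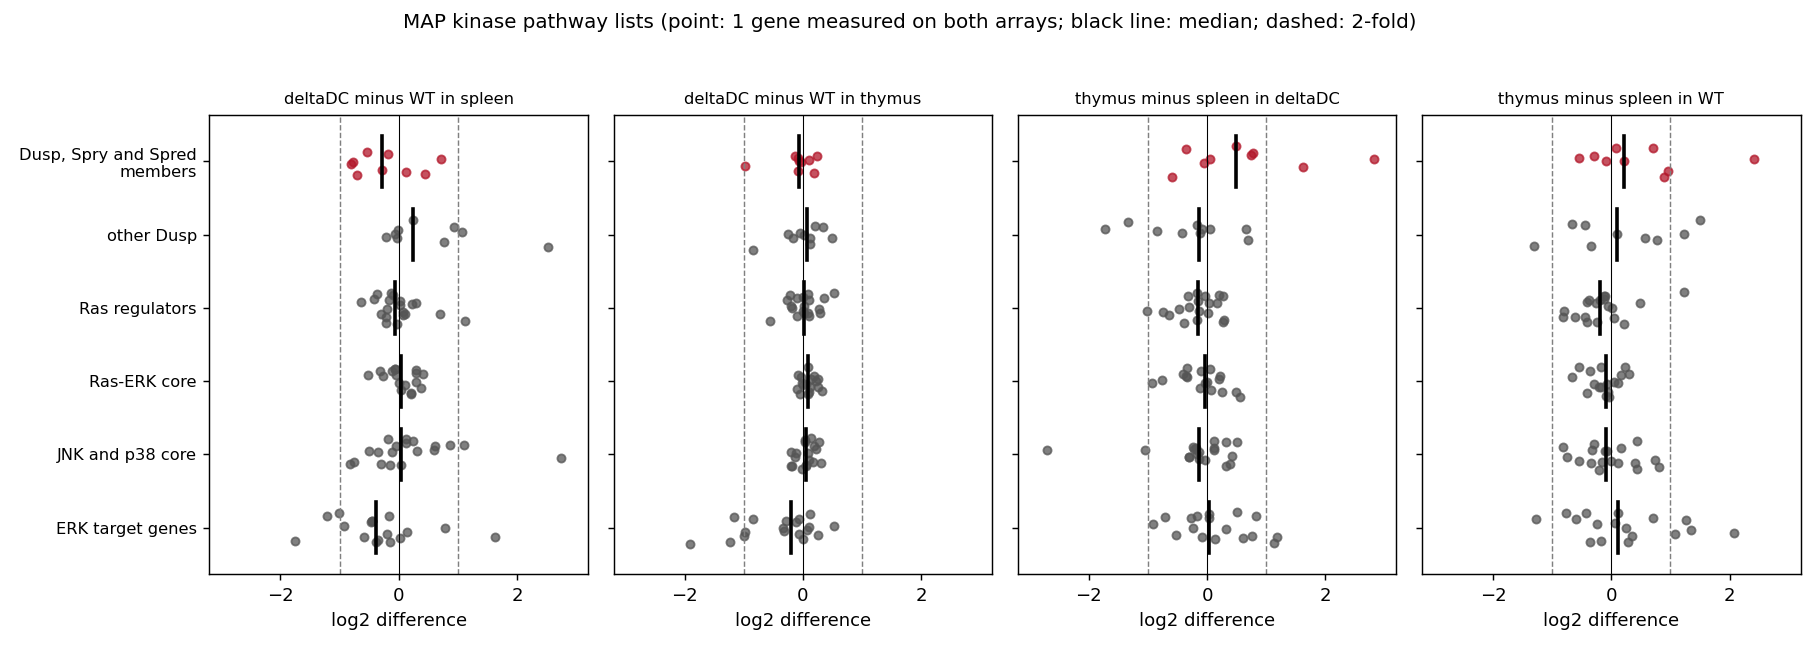
Log2 differences of the 9 measured members (red) and of 5 lists of related genes (grey), 1 point per gene measured on both arrays, for deltaDC over WT in spleen and thymus and for thymus over spleen in deltaDC and WT. Black lines are medians and dashed lines 2-fold. The Ras-ERK core stays between the 2-fold lines in all 4 panels, while ERK target genes have their median at -0.38 in spleen and -0.20 in thymus between genotypes.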

How the data were processed

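Per the labels, Cy3-labelled cRNA of the sorted Tregs went on 1 array per group. The deposited scanner files hold fluorescence intensity from Agilent Feature Extraction 10.7.3.1, background-subtracted and not scaled between arrays, per the file headers, with flag columns of another kind (0 or 1) for outlier, saturated and well-above-background spots. The authors also deposited a matrix of log2 values, which its header calls quantile-normalized, and it served as an alternative. No test compares single arrays, and the number of arrays limits the precision.

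Spots with outlier flags (110 to 168 per array) and controls were removed, each array's 75th percentile was subtracted on the log2 scale, and repeated spots were averaged. Of 55681 probes, 27509 were named by accession through a RefSeq table (GRCm38.p6, names only), 3549 by symbol and 24623 stayed unnamed. Genes with several probes were represented by the brightest on average. A gene was above background if any of its probes was. A gene above background on 1 array of a comparison got a bound: its dim signal was replaced by the lowest signal called well above background there, where that was higher. Spot error came from 399 probes with repeated spots, by signal range, since each member's probe has 1 spot. Genotype and organ were fitted together with limma 3.58.1 in R 4.3.3 (lmFit and eBayes, 1 residual degree of freedom, prior of 1.84) on 13508 genes above background on at least 2 arrays, with a two-sided moderated test and Benjamini-Hochberg adjustment. Alternatives were normexp (offset 50), quantile normalization, the authors' matrix, 2 other filters on dim genes and the median over probes.

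The members, lists and rules were chosen with earlier results of these data known. All members and their probes are named, and of each related list the genes past 2-fold or adjusted p 0.05, at most 6 by size, or else the 3 largest.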

Additional observations from a re-analysis of the deposited data

How the results depend on the processing

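Of 432 values of the 9 genes under 6 alternatives, 399 moved by less than the spot error or stayed on their side of the threshold, 32 moved by more and 1 passed the threshold (the organ effect of Dusp4 with normexp, 2.41, adjusted p 0.0243). Many of the 399 could not move. The 2 other filters on dim genes leave every difference and fitted effect of the members as it is. The median over probes can change these only for Spred1, the only member with several probes. Among differences between 2 arrays, signs changed for Spred1 between genotypes in spleen (-0.57 with the median over probes), for thymus over spleen of Dusp1 in deltaDC (up to 0.11, under 2 alternatives) and of Spred2 in deltaDC (-0.02, under 1). The genotype difference in spleen minus that in thymus changed sign for Dusp2 (0.04 with quantile normalization, against -0.19) and Spred1 (-0.48 with the median over probes, against 0.15). The limma genotype effect changed sign for Spred1 (0.05, against -0.01 with the authors' matrix and -0.33 with the median over probes) and Spred2 (0.005, against -0.013 with normexp). With normexp, 573, 58, 951 and 714 genes differed 2-fold between deltaDC and WT in spleen and in thymus and between thymus and spleen in deltaDC and in WT, against 1066, 210, 1483 and 1208 as reported. With no filter on dim genes they were 3096, 1655, 3562 and 3309. The share of higher genes in the first comparison was then 1739 of 3096, against 813 of 1066. Normexp compresses dim signals, and no filter adds genes near background. The organ effect passed for 223 genes with normexp, 1 member among them, and for 0 genes with quantile normalization, the authors' matrix, genes above background on all 4 arrays, no filter, or the median over probes, against 61 as reported; the cause was not tested. Quantile normalization put 1 member, Dusp1, past 2-fold lower in the deltaDC thymus, against 0 as reported. The scaling alternatives moved the median over all genes by at most 0.08. Both organs were taken from the same mice, and the limma fit compares organs within genotype, with genotype as a term. The genotype effect compares pools of mice, so its SE and p leave out the spread between animals. The labels give no replicate numbers that would add a block, and leaving out an array leaves no residual degree of freedom.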
